A study of Mus musculus with 6 samples.

Results

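The proteasome is the protease that degrades ubiquitin-tagged proteins, and its genes were examined here in livers of Fah-deficient mice after withdrawal of NTBC (nitisinone). Genes were taken by symbol, as all those named Psma to Psmg followed by a number, which gave 49 of the 22180 genes with a probe set of their own. By name, 18 are core subunits (Psma and Psmb), 20 regulatory members (Psmc and Psmd), 4 activators (Psme) and 4 assembly factors (Psmg). The remaining 3 stand outside these classes. Psmf1 encodes an inhibitor, and Psmc3ip and Psme3ip1 are named for a partner and are not subunits. Psma4 was not analysed here, because its probe sets also carry another gene's symbol.

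Both groups were 12-week-old male C57Bl/6J mice whose Fah gene, which encodes the last enzyme of tyrosine breakdown, carries a point mutation. In the NTBC withdrawal group (3 arrays), mice went without the drug for 7 days from 11 weeks of age. The continuous NTBC group (3 arrays) kept drinking it at 8 mg/l in water with 3% dextrose, and the labels do not say whether the withdrawal group kept the dextrose. All mice ate chow low in tyrosine and phenylalanine, and no Fah wild-type mice are among the 6 samples. Replicates are labelled biological but no animal is named, so p-values cover the variation among these 6 samples only. Whole-liver RNA was hybridised to Affymetrix whole-transcript arrays.

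The proteasome core particle is a barrel of stacked alpha and beta rings whose proteolytic sites lie on 3 of the beta subunits. A regulatory particle, made of a base with ATPases and a lid, recognises ubiquitinated proteins, removes the ubiquitin and threads the chain into the core. Other caps, the PA28 and PA200 activators, open the core without ubiquitin, and dedicated chaperones assemble the parts. Cells that meet interferon gamma exchange the catalytic beta subunits for immunoproteasome versions. When proteasome capacity falls short, the transcription factor NRF1 (Nfe2l1) raises transcription of proteasome genes in mammalian cells, and NRF2 (Nfe2l2) has been linked to some of them.

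Values are log2 signals of the authors' normalized table, and a change is withdrawal minus continuous NTBC from limma, with p-values adjusted over all 34472 probe sets by the Benjamini-Hochberg method. A gene rose or fell where the adjusted p was under 0.05. Array medians were 5.21 to 5.39 after withdrawal and 5.29 to 5.44 with continuous NTBC. Signals of different probe sets are not comparable as levels, so only changes are compared between genes. The mutated Fah transcript, which both groups carry and which therefore does not check the labels, read 7.68, 7.88 and 7.43 after withdrawal and 8.30, 7.63 and 7.52 with continuous NTBC. Of 7 hepatocyte markers none rose and 1 fell, the urea cycle enzyme Cps1 (change -1.08), against 6.21% and 3.20% of all probe sets. Changes of 6 of the 7 were below 0, and 3 were lower and 0 higher at an unadjusted p under 0.05, against 11.2% and 12.4% of all probe sets. Serpina1a (change -0.77) just missed the threshold (adjusted p = 0.0625) and passed under several alternatives, such as quantile normalization (0.0207). The summed linear signal of the 7 markers was 58309 to 63623 after withdrawal and 66503 to 71021 with continuous NTBC. The leading one, Alb, averaged 14.12 after withdrawal and 14.17 with continuous NTBC. Among markers of the other cells of liver, 2 of 6 endothelial markers (Lyve1 and Clec4g) rose, 1 of 6 neutrophil markers (Retnlg) fell, and none of 6 stellate cell or 5 cholangiocyte markers passed (2 and 1 were higher at an unadjusted p under 0.05). At that unadjusted p 4 of 6 endothelial markers were higher and 0 lower, and 2 of 6 neutrophil markers were lower and 0 higher. All 6 endothelial markers lay above the upper quartile of signal, where 17.7% of probe sets rose. Lyve1 did not pass with quantile normalization (adjusted p = 0.0661), nor without continuous replicate 2 or any of the withdrawal replicates (up to 0.130). Retnlg passed only without continuous replicate 1 among the left-out arrays (otherwise up to 0.169), and neither with quantile normalization (0.0715) nor with median centring (0.0717). Its signals were 3.15 to 3.35 after withdrawal and 3.61 to 4.22 with continuous NTBC. These lie below the arrays' own lower quartiles (4.03 to 4.26), so without a detection call this fall is uncertain. Ly6g, another dim neutrophil marker (change -0.71), missed the threshold (adjusted p = 0.0596) and passed under several alternatives, such as array weights (0.0196). In whole liver, a change in the number of cells of a type and in RNA per cell cannot be told apart.

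After NTBC withdrawal 8 proteasome genes rose and 0 fell. Psmd5, a chaperone that holds base ATPases during assembly, rose 3.52-fold, while the other 7 rose between 1.44-fold and 1.79-fold. These were the catalytic core subunits Psmb5 and Psmb6, the lid subunits Psmd8 and Psmd12, and the activators Psme1, Psme3 and Psme4. Upward calls made up 16.3% of the 49 genes, against 6.21% of all probe sets, and downward calls 3.20% of all probe sets. At an unadjusted p under 0.05, 19 of the 49 were higher and 2 lower, against 12.4% and 11.2% of all probe sets. The median change of the 49 was 0.29, and that of all probe sets was -0.077. With median centring 11 of the 49 rose, against 6.94% of all probe sets, and with quantile normalization 6 rose, against 5.48%. None fell under either, against 2.05% and 3.92% of all probe sets.

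Proteasome genes give bright signals, and 42 of the 49 lay above the upper quartile of signal (log2 6.71). There 17.7% of all probe sets rose, with a median change of 0.16, and 8 of the 42 proteasome genes (19.0%) rose, with a median of 0.30. The share of proteasome genes that rose was thus near that of other bright probe sets. Groups did not overlap and withdrawal was higher for 24 of the 49, against 13.9% of all probe sets, and for 21 of the 42, against 36.2% of the probe sets above that quartile. Above the median signal 8 of 46 rose, against 11.6% of probe sets there, and 22 of 46 were wholly higher, against 24.6%. When the fit was limited to probe sets above the median, 14 of the 46 rose, against 15.8%, and 0 fell, against 7.48% (limma; 2 were lower at an unadjusted p under 0.05 in the fit to all probe sets). Psmc3 was the 1 gene wholly lower after withdrawal, against 13.7% of all probe sets, and its change was only -0.12 (adjusted p = 0.643). These comparisons with bright probe sets were added after the values were seen.

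The number of genes that rose depended on single arrays. It was 2 without withdrawal replicate 1, 4 without withdrawal replicate 2, 4 without continuous replicate 3 and 5 without continuous replicate 2. Upward calls over all 34472 probe sets fell as well, from 2139 in the full fit to 935, 1122, 1497 and 1327 in the same order. Psmd5 and Psmd8 rose in all 6 of these refits with 1 array left out. Psmb5 and Psme1 missed the threshold without withdrawal replicate 1 only. Across all probe sets 66.0% of calls were upward, against 77.2% once arrays were centred on their medians and 58.3% with quantile normalization.

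**Figure D1:**
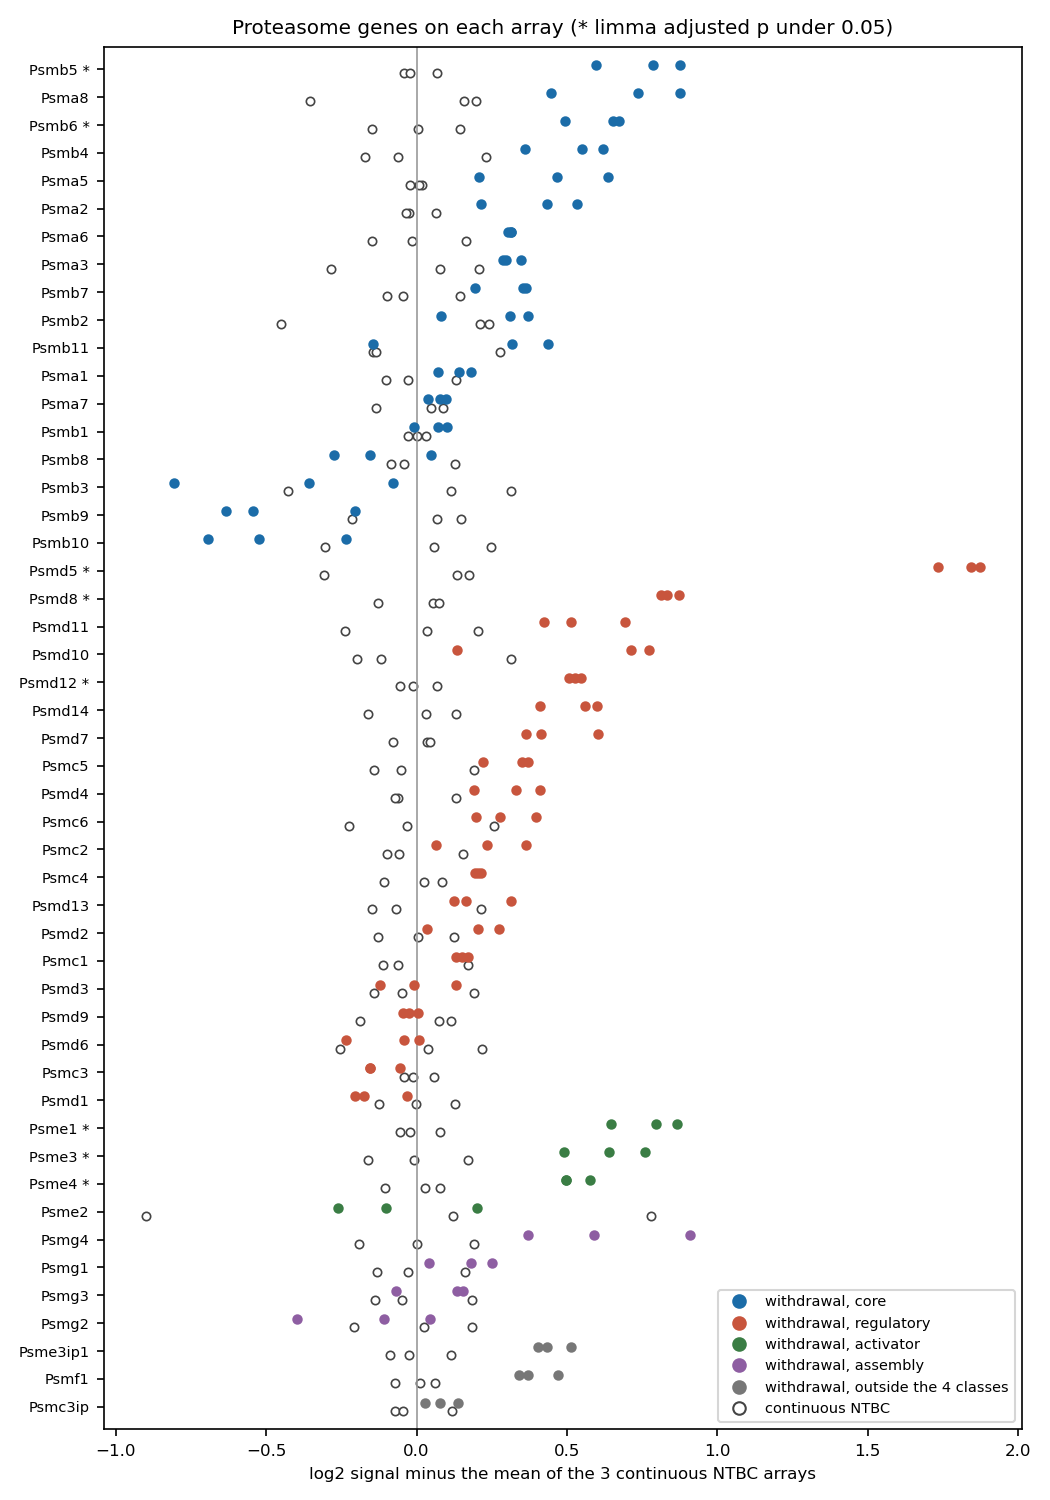
Each row is 1 proteasome gene, and each point 1 array's log2 signal minus the mean of the 3 continuous NTBC arrays; filled points are withdrawal arrays, coloured by class, and open points continuous NTBC arrays. Psmd5 lies furthest to the right, with withdrawal signals of 9.46 to 9.60 against 7.42 to 7.90 with continuous NTBC, and Psmb9 and Psmb10 lie to the left with overlapping groups.

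**Figure D2:**
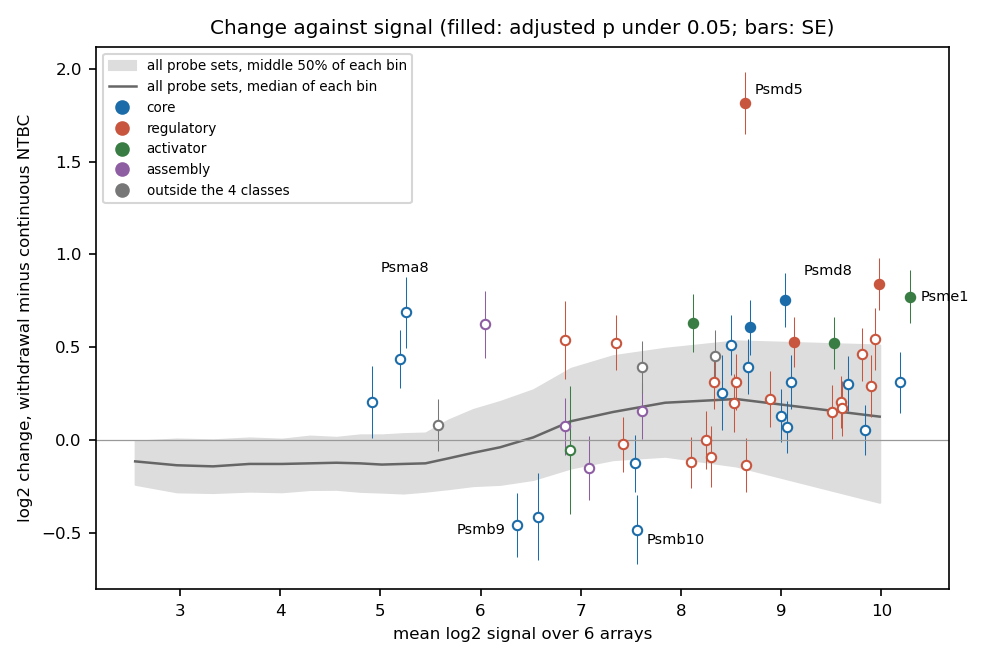
The log2 change, withdrawal minus continuous NTBC, is plotted against the mean log2 signal over 6 arrays, with the SE as a bar and genes past an adjusted p of 0.05 filled. The grey band and line give the middle 50% and the median change of all probe sets in 20 bins of equal size by signal. The line rises above 0 at bright signals, most proteasome genes lie within or above the band, and Psmd5 stands far above it at 1.82.

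The windows from 250 bases before to 50 bases after the transcription start are shown for 5 of the genes that rose. The first 4 are those that hold the core of the antioxidant response element, TGACNNNGC, which NRF1 and NRF2 bind, and the last is Psmd5, the gene with the largest change, in which these letters do not occur. Sequences are RefSeq's on GRCm38.p6, written along the gene's strand, and capitals mark each match on either strand. They come from chr14:54617946-54618245 (minus strand) for Psmb5, chr11:70525107-70525406 (plus) for Psmb6, chr11:107479278-107479577 (plus) for Psmd12, chr11:30771525-30771824 (plus) for Psme4 and chr2:34870913-34871212 (minus) for Psmd5.
Psmb5: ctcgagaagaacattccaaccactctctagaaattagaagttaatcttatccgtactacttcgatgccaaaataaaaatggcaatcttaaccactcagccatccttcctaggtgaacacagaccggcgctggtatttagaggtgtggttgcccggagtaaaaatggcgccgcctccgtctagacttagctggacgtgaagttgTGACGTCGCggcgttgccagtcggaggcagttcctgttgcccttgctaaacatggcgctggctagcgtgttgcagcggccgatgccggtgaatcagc
Psmb6: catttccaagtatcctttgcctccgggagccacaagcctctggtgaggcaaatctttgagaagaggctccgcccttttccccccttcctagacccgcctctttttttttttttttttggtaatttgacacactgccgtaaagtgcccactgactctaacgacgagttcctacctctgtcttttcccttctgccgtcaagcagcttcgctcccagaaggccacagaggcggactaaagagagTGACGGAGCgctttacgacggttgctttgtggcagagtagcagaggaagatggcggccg
Psmd12: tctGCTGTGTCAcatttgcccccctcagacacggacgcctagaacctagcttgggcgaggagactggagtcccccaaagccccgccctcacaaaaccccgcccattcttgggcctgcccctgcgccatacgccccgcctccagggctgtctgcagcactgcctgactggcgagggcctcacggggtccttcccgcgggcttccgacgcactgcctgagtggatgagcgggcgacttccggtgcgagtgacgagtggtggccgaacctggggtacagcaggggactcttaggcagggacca
Psme4: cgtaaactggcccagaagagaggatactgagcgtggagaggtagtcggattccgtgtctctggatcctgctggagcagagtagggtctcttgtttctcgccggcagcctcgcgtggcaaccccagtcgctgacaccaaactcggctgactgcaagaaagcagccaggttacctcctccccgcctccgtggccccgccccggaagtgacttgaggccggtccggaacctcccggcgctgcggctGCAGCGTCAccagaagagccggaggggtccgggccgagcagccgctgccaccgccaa
Psmd5: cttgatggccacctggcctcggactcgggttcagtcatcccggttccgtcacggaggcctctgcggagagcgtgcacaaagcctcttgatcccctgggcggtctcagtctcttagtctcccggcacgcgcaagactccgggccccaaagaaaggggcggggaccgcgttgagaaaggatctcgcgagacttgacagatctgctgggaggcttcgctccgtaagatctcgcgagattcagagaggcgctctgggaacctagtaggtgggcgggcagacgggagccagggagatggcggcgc
In Psmb5 and Psmb6 the match reads along the gene and begins 47 and 9 bases before the start. In Psmd12 and Psme4 it lies on the opposite strand, so the printed capitals are its reverse complement, 247 and 7 bases before the start. Of the 41 proteasome genes with a window, 6 held the motif, namely 4 of the 8 that rose and 2 of the other 33, Psmc6 and Psmd9. Over all 32851 windows of this length 12.39% held it. The motif was chosen after the changes were known, so this is a description of these windows and not a test. The core of the interferon-stimulated response element (GAAA, then NN, then GAAA, on either strand) occurred in 5 of the 41, Psmb3, Psmd4, Psmd9, Psme1 and Psmg4, and in 3.44% of all windows. It overlapped no TGACNNNGC match in these genes.

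Within the core particle the catalytic beta subunits rose in part. Psmb5, the chymotrypsin-like protease subunit, read 9.54, 9.45 and 9.26 on the withdrawal arrays and 8.62, 8.73 and 8.64 on the continuous NTBC arrays. Every withdrawal array lay above every continuous array, and the change was 0.75 (SE 0.15, adjusted p = 0.00958). Psmb6, the caspase-like subunit, read 9.04, 9.06 and 8.88 after withdrawal and 8.24, 8.53 and 8.39 with continuous NTBC. Its groups did not overlap either, and its change was 0.61 (SE 0.15, adjusted p = 0.0299). Psmb7, the trypsin-like subunit, read 9.87, 9.88 and 9.71 after withdrawal and 9.66, 9.42 and 9.47 with continuous NTBC. The separation was narrow, and the change of 0.30 did not pass (95% interval -0.02 to 0.63, adjusted p = 0.245). Leaving out withdrawal replicate 1 ended the Psmb5 call (adjusted p = 0.0694). That of Psmb6 held only without withdrawal replicate 3 or continuous replicate 2 and was lost without the other arrays (adjusted p = 0.141 without withdrawal replicate 1, 0.117 without withdrawal replicate 2, 0.0573 without continuous replicate 1 and 0.0724 without continuous replicate 3) and with quantile normalization (0.126).

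None of the 3 immunoproteasome catalytic subunits rose. Psmb8, which takes the place of Psmb5, read 7.33, 7.65 and 7.45 after withdrawal and 7.56, 7.73 and 7.52 with continuous NTBC, so the groups overlapped (change -0.13, 95% interval -0.47 to 0.21, adjusted p = 0.659). Psmb9, which takes the place of Psmb6, read 5.96, 6.39 and 6.05 after withdrawal and 6.38, 6.74 and 6.66 with continuous NTBC. The highest withdrawal signal just reached the lowest continuous one, and the change was -0.46 (unadjusted p = 0.0230, adjusted p = 0.135). For Psmb10, the counterpart of Psmb7, the signals were 7.28, 7.57 and 7.11 after withdrawal and 7.86, 8.05 and 7.50 with continuous NTBC. They overlapped by 1 withdrawal array, with a change of -0.48 (unadjusted p = 0.0277, adjusted p = 0.151). With array weights Psmb9 was lower by the test (change -0.56, adjusted p = 0.0428).

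The log2 difference between each immunoproteasome subunit and its constitutive counterpart was taken on every array. The difference Psmb8 minus Psmb5 was -1.94 ± 0.23 after withdrawal and -1.06 ± 0.06 with continuous NTBC (SD, n = 3 each). For Psmb9 minus Psmb6 it was -2.86 ± 0.21 after withdrawal and -1.79 ± 0.07 with continuous NTBC, and for Psmb10 minus Psmb7 it was -2.50 ± 0.16 and -1.71 ± 0.31 in the same order of groups. The level of such a difference has no meaning of its own, since it sets one probe set against another. A constant offset cancels in its shift between groups, but a dependence of changes on signal does not. Over all probe sets the median change was -0.040, 0.15, 0.22 and 0.13 in bins with median signals of 6.19, 7.32, 8.55 and 9.98. Psmb5, Psmb6 and Psmb7 had mean signals of 9.04, 8.69 and 9.67, and Psmb8, Psmb9 and Psmb10 of 7.54, 6.36 and 7.56. The part of signal in the shifts was not tested. The shifts were -0.88, -1.07 and -0.79. In each of the 3 pairs all withdrawal arrays lay below all continuous arrays, and a two-sided exact permutation test over samples gave p = 0.1 (0.1 after adjustment over the 3 pairs), the smallest p that 3 against 3 arrays can give, so this design cannot pass a threshold of 0.05.

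**Figure D3:**
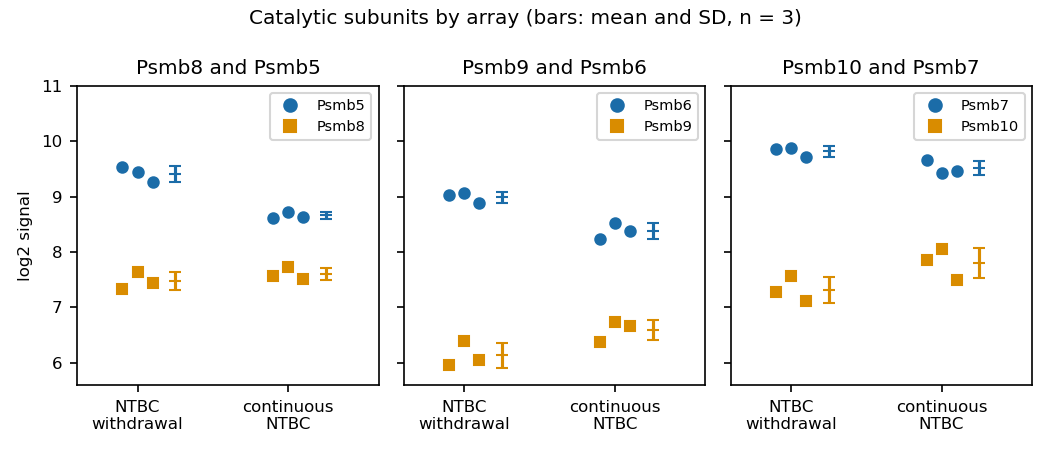
Log2 signals on each array for the 3 pairs of catalytic subunits, withdrawal left and continuous NTBC right, with circles for the constitutive subunit, squares for the immunoproteasome subunit and bars for mean and SD (n = 3). In each panel the gap between circles and squares is wider after withdrawal, with shifts of -0.88, -1.07 and -0.79 in the log2 difference.

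Leukocytes carry much of a tissue's immunoproteasome, so their markers were read on the same arrays. Of 8 general leukocyte markers, 1 rose (Lcp1) and none fell, against 6.21% and 3.20% of all probe sets. At an unadjusted p under 0.05, 2 were higher (Lcp1 and Cd52) and 0 lower, against 12.4% and 11.2% of all probe sets. The summed linear signal of the 8 was 1334 to 1483 after withdrawal and 890.0 to 1125 with continuous NTBC. Lcp1 alone gave 809 to 849 after withdrawal and 410.2 to 596 with continuous NTBC, and the other 7 summed to 525 to 634 and 480 to 529 in the same order of groups, with overlap. The sum without Lcp1 was added after the values were seen. The Lcp1 call held only without continuous replicate 1 among the left-out arrays (highest adjusted p = 0.0988, without withdrawal replicate 1). T and NK cell markers had 0 of 6 called (0 at an unadjusted p under 0.05 too), with sums of 186 to 223 after withdrawal and 207 to 236 with continuous NTBC. B cell markers had 0 of 5 called (1 lower at an unadjusted p under 0.05), with sums of 153 to 181 after withdrawal and 169 to 208 with continuous NTBC. Among 10 macrophage and Kupffer cell markers Mpeg1 rose and none fell (sums 1683 to 2430 after withdrawal and 1616 to 1842 with continuous NTBC). At an unadjusted p under 0.05, 2 of these 10 were higher (Mpeg1 and Cd68) and 0 lower. The Mpeg1 call was lost without withdrawal replicate 1 or 2 or continuous replicate 2 (highest adjusted p = 0.106). The array has no detection call, so none of these markers can be called absent, and their part in the immunoproteasome values was not tested.

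Interferon gamma targets and antigen presentation genes, which are regulated together with the immunoproteasome, were also read. Of 10 measured, 0 rose and 1 fell, against 6.21% and 3.20% of all probe sets, with a median change of -0.32. At an unadjusted p under 0.05, 0 were higher and 4 lower, against 12.4% and 11.2% of all probe sets. H2-K1, a class I antigen-presenting molecule, fell by 0.94 (adjusted p = 0.00756), with 9.75, 10.06 and 9.81 after withdrawal and 10.60, 11.09 and 10.75 with continuous NTBC. Class I genes are near-identical in part and can share probes, so this value is uncertain for the single gene. Nlrc5 had a change of -0.65 (adjusted p = 0.0870). Irf1, a transcription factor of the interferon response, had a change of -0.36 (adjusted p = 0.146), and the peptide transporter subunit Tap1, a neighbour of Psmb9 in the genome, one of -0.10 (adjusted p = 0.721). Nlrc5 fell without dim probe sets (0.0453) and with array weights (0.0350), and Erap1 fell with quantile normalization (0.0342). In each of these settings 2 of 10 fell. Downward calls there were 7.48% of probe sets without dim ones, 2249 of 34472 with array weights and 3.92% with quantile normalization.

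The alpha ring and the non-catalytic beta subunits did not pass the test. All 6 measured alpha ring subunits had changes above 0, from 0.070 for Psma7 to 0.44 for Psma5, with adjusted p from 0.118 to 0.807. Psma2, Psma3, Psma5 and Psma6 had groups that did not overlap. Withdrawal was wholly higher for 13.9% of all probe sets and for 36.2% of those above the upper quartile of signal. For Psma5 both probe sets were dim, and the one not used gave a change of 0.49 with continuous signals of 4.04, 3.34 and 5.97. Among the non-catalytic beta subunits Psmb4 had the largest change, 0.51 (adjusted p = 0.0811), with 8.79, 8.86 and 8.60 after withdrawal and 8.47, 8.18 and 8.07 with continuous NTBC. Psmb1 and Psmb2 had changes of 0.053 and 0.25, and Psmb3 one of -0.41 with overlapping groups (95% interval -0.94 to 0.11). Psmb4 passed without continuous replicate 1 (adjusted p = 0.0360). It also passed without dim probe sets (0.0390), with array weights (0.0237) and with limma's trend and robust options (0.0484).

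The tissue-restricted core subunits gave low signals, below the median of all probe sets. Psmb11, the beta subunit of thymus epithelium, read 5.13, 4.67 and 5.25 after withdrawal and 4.67, 4.68 and 5.09 with continuous NTBC, with wholly overlapping groups. Psma8, the alpha subunit of testis, read 5.36, 5.79 and 5.65 after withdrawal and 4.56, 5.07 and 5.11 with continuous NTBC. These did not overlap, and the change of 0.69 just missed the threshold (SE 0.19, adjusted p = 0.0512). It passed under 6 alternatives, with adjusted p from 0.0212 to 0.0489. With no detection call, signals this low do not show that the transcript was present.

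In the base of the regulatory particle none of the 6 ATPases rose or fell, and none had an unadjusted p under 0.05. Changes ran from -0.12 for Psmc3 to 0.31 for Psmc5, with a median of 0.21. Psmc4 and Psmc5 were wholly higher after withdrawal, although by little: Psmc4 read 9.69, 9.71 and 9.70 against 9.52, 9.39 and 9.58 with continuous NTBC. A second probe set of Psmc2 gave 0.20, close to the 0.22 of the one used. The large base subunits Psmd1 and Psmd2, which scaffold the base, had changes of -0.14 and 0.17, and the ubiquitin receptor Psmd4 one of 0.31 (adjusted p = 0.235).

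The lid had 2 of 8 subunits that rose and a median change of 0.49. All 20 regulatory members lay above the upper quartile of signal, where 17.7% of probe sets rose, with a median change of 0.16. Psmd8 read 10.37, 10.39 and 10.43 after withdrawal and 9.61, 9.63 and 9.43 with continuous NTBC. The gap between groups was several times the spread within them, with a change of 0.84 (SE 0.14, adjusted p = 0.00461). Psmd12 read 9.39, 9.37 and 9.41 after withdrawal and 8.81, 8.85 and 8.93 with continuous NTBC, a change of 0.53 (SE 0.14, adjusted p = 0.0379). The groups were well apart and the withdrawal arrays nearly equal, yet the Psmd12 call was lost without any 1 array (adjusted p from 0.0602 to 0.159) and with quantile normalization (0.128).

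Psmd14, the deubiquitinase of the lid, came close, with 7.65, 7.69 and 7.50 after withdrawal and 7.12, 6.93 and 7.22 with continuous NTBC (change 0.52, adjusted p = 0.0559). Psmd11 had a change of 0.54 (adjusted p = 0.0697) and Psmd7, the partner of Psmd14, one of 0.46 (adjusted p = 0.0784). All 3 had groups that did not overlap. The other lid subunits stayed near 0, at 0.20 for Psmd13, -1.03e-05 for Psmd3 and -0.090 for Psmd6, with overlapping groups. Psmd11 passed without continuous replicate 1 (adjusted p = 0.0386), and Psmd14 in no refit with 1 array left out. Psmd7, Psmd11 and Psmd14 passed without dim probe sets, with array weights and with limma's trend and robust options (adjusted p from 0.0186 to 0.0389). Psmd14 also passed with median centring (0.0469), single-symbol probe sets only (0.0413) and probe sets averaged (0.0393), and Psmd11 with the last (0.0494).

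The 3 chaperones of the base differed from each other. Psmd5 read 9.57, 9.60 and 9.46 after withdrawal and 7.90, 7.42 and 7.86 with continuous NTBC. Its groups lay further apart than those of any other gene of the 49, with a change of 1.82 (SE 0.17, adjusted p = 1.37e-04). With each array left out in turn the change was 1.66 to 1.90 and the adjusted p at most 0.00126. Psmd10 (gankyrin), which also binds the base and is known as an oncoprotein of liver, read 7.35, 7.29 and 6.71 after withdrawal and 6.89, 6.46 and 6.38 with continuous NTBC. The low withdrawal array fell among the continuous ones, and the change of 0.54 did not pass (adjusted p = 0.152). Psmd9 had a change of -0.023 (95% interval -0.35 to 0.30).

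Of the 4 activators, 3 rose, against 6.21% of all probe sets. All 4 lay above the upper quartile of signal, where 17.7% rose. Psme1, the alpha subunit of PA28, read 10.77, 10.70 and 10.55 after withdrawal and 9.88, 9.98 and 9.85 with continuous NTBC, a change of 0.77 (SE 0.14, adjusted p = 0.00776). Its partner Psme2, the beta subunit, read 6.82, 6.66 and 7.12 after withdrawal and 6.02, 7.04 and 7.70 with continuous NTBC. The continuous arrays spread so widely that the withdrawal arrays all fell inside them, and the interval of the change ran from -0.82 to 0.71. A probe set that Psme2 shares with other genes gave -0.17, so the array does not settle whether the 2 partners moved alike.

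Psme3, the nuclear activator PA28 gamma, read 8.57, 8.45 and 8.30 after withdrawal and 7.98, 7.80 and 7.65 with continuous NTBC (change 0.63, SE 0.16, adjusted p = 0.0305). Psme4, which encodes PA200, read 9.76, 9.84 and 9.76 after withdrawal and 9.34, 9.16 and 9.29 with continuous NTBC (change 0.52, SE 0.14, adjusted p = 0.0430). Neither overlapped between groups. Without withdrawal replicate 1 none of the activators passed (adjusted p = 0.0565 for Psme1, 0.159 for Psme3 and 0.157 for Psme4), and 1 passed without withdrawal replicate 2, continuous replicate 2 or continuous replicate 3. The Psme4 call held only without continuous replicate 1 (adjusted p = 0.0434), and that of Psme3 only without continuous replicate 1 or withdrawal replicate 3. With quantile normalization Psme3 and Psme4 had adjusted p = 0.0685 and 0.0643. Psmf1, the inhibitor PI31, had a change of 0.39 (adjusted p = 0.115), with groups that did not overlap.

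No assembly chaperone of the core passed. At an unadjusted p under 0.05, 1 of 4 was higher, against 12.4% of all probe sets. These chaperones work as the pairs Psmg1 with Psmg2 and Psmg3 with Psmg4, and help alpha rings form. Psmg4 had the largest change, with 6.32, 6.64 and 6.10 after withdrawal and 5.73, 5.92 and 5.54 with continuous NTBC. These did not overlap, and the change was 0.62 (adjusted p = 0.0589, or 0.0477 without withdrawal replicate 3). Its partner Psmg3 had a change of 0.073, Psmg1 one of 0.16 and Psmg2 one of -0.15, all with overlapping groups. Pomp, the maturation factor that joins the beta rings, read 9.50, 9.51 and 9.35 after withdrawal and 9.14, 8.52 and 8.80 with continuous NTBC, a change of 0.63 (adjusted p = 0.0531). It passed under several alternatives, with adjusted p from 0.0133 with array weights to 0.0493 with median centring, but not with quantile normalization. Among the refits with 1 array left out Pomp passed only without continuous replicate 1 (0.0156). Of the genes named for a partner only, Psme3ip1, which binds the Psme3 protein, had a change of 0.45 (adjusted p = 0.0785) and Psmc3ip, a meiotic recombination factor, one of 0.080.

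Among factors that work with the proteasome, of 15 measured, 8 rose and none fell, with a median change of 0.65. All 15 lay above the upper quartile of signal, where 17.7% of probe sets rose (6.21% of all). Zfand2a, which rose, passed that cut only through its withdrawal arrays (mean 7.53, against 6.40 with continuous NTBC). Zfand5, a zinc finger protein that stimulates the proteasome, read 9.42, 9.49 and 9.37 after withdrawal and 8.13, 8.01 and 8.10 with continuous NTBC (2.54-fold, adjusted p = 2.61e-04). Uchl5, a deubiquitinase of the regulatory particle, read 8.75, 8.78 and 8.67 after withdrawal and 7.61, 7.53 and 7.86 with continuous NTBC (2.09-fold, adjusted p = 0.00170). Ubqln2, a shuttle that carries ubiquitinated proteins to the proteasome, rose 2.23-fold. The other deubiquitinase, Usp14, had a change of 0.0034 (adjusted p = 0.993) and the small lid subunit Sem1 one of -0.15 (adjusted p = 0.552). The count was 7 to 9 with each array left out. The difference in frequency between these factors and the subunits was not tested.

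Among 9 measured regulators of proteasome genes 3 rose, Nfe2l2, Mafk and Bach1, and none fell. Above the upper quartile of signal 3 of 8 rose, against 17.7% of probe sets there (6.21% of all). Nfe2l2, which encodes NRF2, read 10.36, 10.22 and 10.01 after withdrawal and 8.57, 8.73 and 8.79 with continuous NTBC, a 2.83-fold rise (adjusted p = 2.68e-04). Nfe2l1, which encodes NRF1, read 8.66, 8.70 and 8.57 after withdrawal and 8.21, 8.05 and 8.18 with continuous NTBC. Its groups did not overlap, but the change of 0.50 just missed the threshold (SE 0.14, adjusted p = 0.0537). It passed under 6 alternatives, with adjusted p from 0.0230 to 0.0470, which made the count of regulators that rose 4 of 9. Vcp, the unfoldase that frees NRF1 from the endoplasmic reticulum, had a change of 0.37 (adjusted p = 0.164). The regulator count was 2 without withdrawal replicate 1, where Mafk did not pass (adjusted p = 0.0606). For scale, all 11 measured NRF2 target enzymes and transporters rose, against 6.21% of all probe sets. Their mean signals over the 6 arrays lay above the upper quartile of signal. Slc7a11, Cbr3 and Abcc4 passed that cut only through their withdrawal arrays (means of 3.99, 4.81 and 6.30 with continuous NTBC). The cut therefore gives no like comparison for these genes. Changes were 1.41 to 5.63 for 10 of them, and the proteasome genes other than Psmd5 stayed at or below 0.84. The upper end is Cbr3, whose continuous NTBC signals of 5.21, 4.01 and 5.22 lie below the medians of their arrays. Without a detection call the size of its change is uncertain. For the last of the 11, the cystine transporter Slc7a11, the signals were 10.92, 10.97 and 10.44 after withdrawal and 4.51, 3.82 and 3.63 with continuous NTBC. The signals with continuous NTBC lie near the arrays' lower quartiles of 4.11 to 4.26, and without a detection call the size of this change is not given.

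Upstream of the proteasome, 4 of 26 measured ubiquitin-conjugating (E2) enzymes rose and 1 fell, with a median change of 0.33. Above the upper quartile of signal 4 of 22 rose (18.2%), against 17.7% of probe sets there. The count that rose was 9 without dim probe sets, 8 with array weights and 9 with limma's trend and robust options. Over all 34472 probe sets upward calls numbered 2139 in the main fit, 3339 with array weights and 2560 with trend and robust. Without dim probe sets 15.8% of those tested rose. Ube2k, which builds ubiquitin chains, rose 2.61-fold (adjusted p = 2.96e-04), and Ube2e2 fell by 0.60. The count of E2 enzymes that rose was 7 without continuous replicate 1 and 3 without any 1 of the others. Ube2e2 did not pass in the refits without continuous replicate 2 or one of the withdrawal arrays (adjusted p up to 0.123). Nor did it pass with median centring (change -0.50, adjusted p = 0.0907). Uba6, the alternative ubiquitin-activating enzyme, was the 1 gene of its list of 6 that could be measured, and it rose 2.81-fold (adjusted p = 8.79e-04). Of 11 cofactors of the Vcp protein 2 rose, Ubxn4 and Faf1, and none fell (median 0.27). All 11 lay above the upper quartile of signal, and their share of 18.2% is near the 17.7% of probe sets there. It was 4 of 11 without dim probe sets or with array weights, and 1 of 11 with quantile normalization. The count was 0 without withdrawal replicate 2 and 1 without withdrawal replicate 1, withdrawal replicate 3, continuous replicate 2 or continuous replicate 3.

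Other large complexes were read for comparison. The COP9 signalosome, whose subunits are related to those of the lid, had 2 of 10 subunits that rose, Cops2 and Cops9, and a median change of 0.24. Above the upper quartile of signal 2 of 9 rose (22.2%), against 17.7% of probe sets there. Cops9 passed that cut only through its withdrawal arrays (mean 7.22, against 6.28 with continuous NTBC). The CCT chaperonin, a ring that folds cytosolic proteins, had 5 of 8 that rose, all 8 lying above that quartile, and a median of 0.55. With quantile normalization 3 of 8 rose. Cct3 read 9.17, 9.07 and 8.90 after withdrawal and 8.37, 8.24 and 8.07 with continuous NTBC (change 0.82, adjusted p = 0.00810). Without withdrawal replicate 1 neither complex had a subunit that passed, and the chaperonin count was 3 without withdrawal replicate 2, withdrawal replicate 3, continuous replicate 2 or continuous replicate 3. The signalosome count was 1 without withdrawal replicate 2 or continuous replicate 2.

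**Figure D4:**
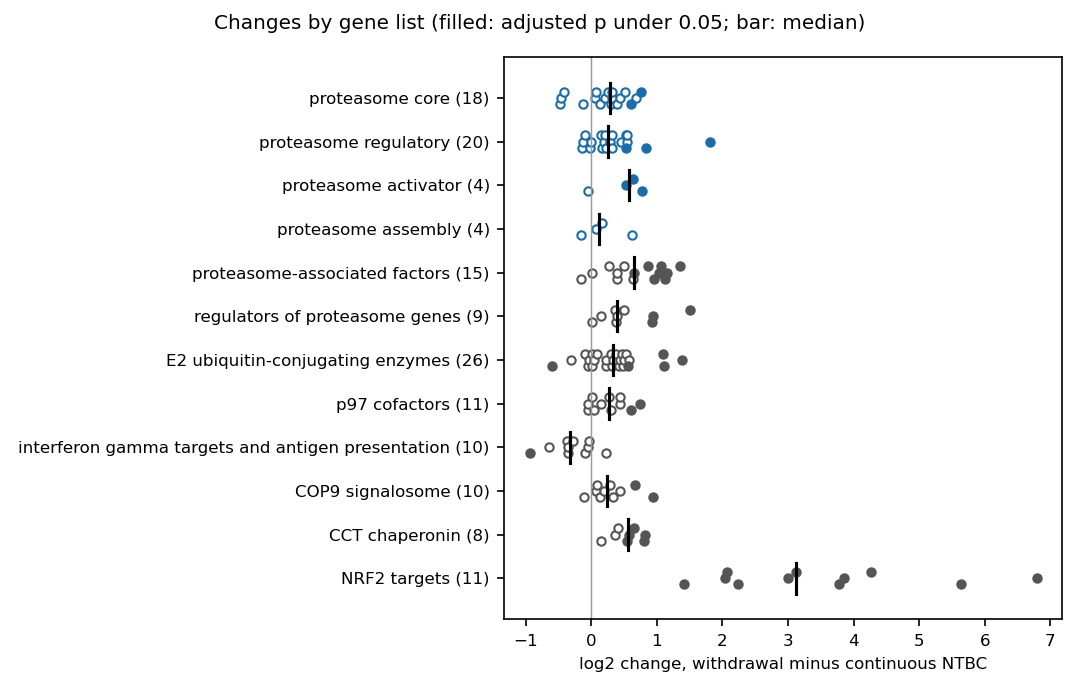
Each point is the log2 change, withdrawal minus continuous NTBC, of 1 gene, by proteasome class (blue) and by list (grey), with filled points past an adjusted p of 0.05, bars at medians and the number of genes in brackets. The 4 proteasome classes have medians of 0.28 (core), 0.26 (regulatory), 0.58 (activator) and 0.11 (assembly), the NRF2 targets one of 3.12 (the point furthest right is Slc7a11, whose continuous NTBC signals are near the lower quartile), and the interferon gamma list lies left of 0 at -0.32.

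The classes can be set side by side by their counts. Genes that rose numbered 3 of 4 activators, 3 of 20 regulatory members, 2 of 18 core members and 0 of 4 assembly factors, against 6.21% of all probe sets. Above the upper quartile of signal, where 17.7% of probe sets rose, they numbered 3 of 4 activators, 3 of 20 regulatory members (15.0%), 2 of 13 core members (15.4%) and 0 of 3 assembly factors. The shares of core and regulatory members were thus no higher than that of comparably bright probe sets. With the base chaperones Psmd5, Psmd9 and Psmd10 counted as assembly factors by function, the counts were 2 of 17 regulatory members and 1 of 7 assembly factors. The activator class is small and holds Psme2, whose spread was the widest of the 49, and the differences between classes were not tested. Within the withdrawal group replicate 3 gave the lowest signal for 26 of the 49 genes.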

How the data were processed

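Per the submitters' processing notes, the authors used Transcriptome Analysis Console; its version, background correction and normalization are not given in the sources used here. The deposited values are normalized intensities on a linear scale, 1 for each probe set on an array, without detection flags. Their log2 was taken and the group difference fitted by lmFit and eBayes (limma 3.58.1, R 4.3.3; 4 residual and 10.18 total degrees of freedom), two-sided, over all 34472 probe sets, with no filter on low signals. The fit was tested on simulated data. Genes were named from probe sets with 1 symbol (23521), and the probe set with the highest mean was taken per gene. Depth has no meaning for arrays, and 3 per group limit the precision. The members and lists were chosen with earlier results of these data known. Any member could be named, and of each list up to 3 genes with the smallest p, a few fixed genes and markers. Ube2e2, Tap1, Erap1, Cbr3 and Zfand2a fall outside that rule and were named after their values were seen. The motifs were chosen with the changes known. Psmc3ip and Psme3ip1 were kept out of the classes their names fall in. The alternatives (normalization, filter on dim probe sets, replicate block, array weights, eBayes options, probe set choice, fold minimum, each array left out) are given in the closing section.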

Additional observations from a re-analysis of the deposited data

How the results depend on the processing

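In the fit as reported, 8 proteasome genes rose and 0 fell. The count that rose was 14 without dim probe sets, 17 with array weights and 14 with limma's trend and robust options. It was 1 at a 2-fold minimum, and 1 gene fell with array weights. Over all probe sets, upward calls numbered 2731 of 17236 without dim probe sets. Of all 34472 they numbered 2139 in the fit as reported, 3339 with array weights and 2560 with trend and robust. Downward calls with array weights numbered 2249 of 34472. Core members that rose numbered 4 with array weights, 4 with trend and robust and 0 at 2-fold. Regulatory members numbered 6 without dim probe sets, 7 with array weights, 6 with trend and robust, 5 with probe sets of a gene averaged and 1 at 2-fold. Activators numbered 1 with quantile normalization and 0 at 2-fold. Assembly factors numbered 1 with median centring, without dim probe sets, with the replicate block, with array weights, with single-symbol probe sets only, with probe sets averaged and, an alternative chosen after seeing the data, with the base chaperones counted among them. With each array left out the counts ran from 2 to 8 for all members that rose, 0 to 0 for those that fell, 0 to 2 for core, 2 to 3 for regulatory, 0 to 3 for activators and 0 to 1 for assembly factors. Upward calls over all probe sets ran from 935 to 2629 in the same refits. The cause of these moves was not tested.

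With the replicate number as a block 8 genes rose, with Psmd12 and Psme4 lost and Psma8 and Psmg4 gained; same-numbered arrays do not deviate together (correlations of deviations 0.16, -0.12 and 0.22), so they share only a number. The sign of 8 genes with main changes of at most 0.16 in size turned in 15 refits, none called (lowest adjusted p = 0.569). With quantile normalization these were Psma1 (-0.029), Psma7 (-0.093), Psmb1 (-0.015), Psmg1 (-0.017) and Psmg3 (-0.037, and -0.023 with array weights). With median centring they were Psmd6 (0.010), Psmd9 (0.077) and Psme2 (0.047). With each array left out, values ran from -0.22 to 0.018 for Psmd6, -0.12 to 0.033 for Psmd9 and -0.50 to 0.34 for Psme2. Raising signals below an array's lower quartile to it could change no member, so that refit says nothing on how the results hold. The lowest member signal was 4.56 (Psma8, continuous replicate 1), and the arrays' lower quartiles were 4.03 to 4.26. No detection flags are given, so signals of Psma5, Psma8 and Psmb11, below the median of all probe sets, carry the least weight.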
